A study of Mus musculus with 2 samples.

Results

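Sulfiredoxin (Srxn1) and 9 other genes of the antioxidant response were followed through single-cell RNA-seq libraries of mouse periodontal tissue. The 10 genes, of 31053 in the count matrices, were Srxn1, Hmox1, Nqo1, Txnrd1, Gclm, Slc7a11, Prdx1, Prdx5, Sod2 and Sqstm1. Srxn1 was chosen by its higher level in neutrophils of the ligature library, so its neutrophil values are a description, and the other 9 were chosen by function beside it, with earlier results of these data known. The study compared wild-type C57BL/6 mice aged 8 weeks that were left untreated (control) with mice of the same strain, genotype and age that carried a ligature around a molar for 7 days, a model of periodontitis (LIP). Each condition gave 1 library made from 5 pooled mice, and no label ties a cell to a mouse. With 1 library per condition there was no spread between samples and no test of the condition. Every interval below is an exact 95% interval that covers counting error only.

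Cells meet peroxides and electrophiles with a set of genes that share a transcription factor, NRF2 (gene Nfe2l2). KEAP1 marks NRF2 for degradation in resting cells, oxidation of KEAP1 releases it, and NRF2 paired with a small MAF protein then binds antioxidant response elements. Neutrophils make superoxide with the NADPH oxidase and also carry the thioredoxin, peroxiredoxin and glutathione systems that remove peroxides. Sod2 and Slc7a11 are also known targets of inflammatory and stress signalling, so the 10 genes have more than 1 known regulator.

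Srxn1 lies on chromosome 2 (GRCm38, 152105516 to 152111376, plus strand) and encodes the enzyme that restores peroxiredoxins whose active cysteine has been over-oxidised. RefSeq promoter windows were matched for 9 of the 10 genes, and the 250 bases upstream of each start were searched on both strands for an antioxidant response element core, spelled TGACNNNGC, and for an AP-1 site, spelled TGANTCA. The core was found in windows of 3 genes (Gclm, Prdx1 and Txnrd1), and it is present in 10.2% of the 32851 promoter windows of that length. The AP-1 letters were found 2 times in the Srxn1 window, 102 and 45 bases upstream of the start, and 2 times in the Prdx1 window, and they are present in 6.75% of all windows. In Prdx1 the match 131 bases upstream lies within the letters of the core. The Srxn1 match 45 bases upstream is followed by gc, and so departs from the core only by G in place of C. The 4 windows that hold a match are shown 5′ to 3′ on the gene's strand in GRCm38.p6, trimmed where an annotated exon begins, with the matched letters in capitals. The core lies on the opposite strand in all 3 genes and so appears as its reverse complement. A match describes letters in a window, not a bound site.
Srxn1, chr2:152105274-152105515, plus strand: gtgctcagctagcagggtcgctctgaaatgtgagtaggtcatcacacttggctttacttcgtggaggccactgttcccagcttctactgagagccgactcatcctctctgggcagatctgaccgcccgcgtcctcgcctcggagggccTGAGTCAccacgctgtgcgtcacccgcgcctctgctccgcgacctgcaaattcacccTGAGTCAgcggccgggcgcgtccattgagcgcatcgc
Prdx1, chr4:116685349-116685543, plus strand: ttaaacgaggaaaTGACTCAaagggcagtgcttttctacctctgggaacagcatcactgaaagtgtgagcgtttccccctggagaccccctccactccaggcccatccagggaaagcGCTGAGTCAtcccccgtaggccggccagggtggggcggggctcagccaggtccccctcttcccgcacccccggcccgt
Gclm, chr3:122245307-122245556, plus strand: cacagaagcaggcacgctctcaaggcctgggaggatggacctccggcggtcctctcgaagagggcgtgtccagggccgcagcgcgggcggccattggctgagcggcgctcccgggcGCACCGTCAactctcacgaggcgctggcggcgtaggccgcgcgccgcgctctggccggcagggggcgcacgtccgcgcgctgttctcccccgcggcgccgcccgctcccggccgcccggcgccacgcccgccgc
Txnrd1, chr10:82859009-82859178, plus strand: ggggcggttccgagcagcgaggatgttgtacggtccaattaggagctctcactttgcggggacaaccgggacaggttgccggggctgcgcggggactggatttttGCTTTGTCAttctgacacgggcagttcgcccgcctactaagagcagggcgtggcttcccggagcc

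After the filters, 883 of 1169 control barcodes and 936 of 1212 LIP barcodes were kept, with medians of 10845 and 5595 unique molecular identifiers (UMIs, each a captured transcript) per cell. The libraries had 2 barcodes in common, 1 of them among the kept cells. Cells were clustered, sub-clusters were named from fixed marker genes as 12 classes, and 10 classes held at least 10 cells in each library. Neutrophil-like cells numbered 53 in control and 320 in LIP, macrophage-like cells 41 and 78, and epithelial-like cells 224 and 113. All 15 neutrophil markers were detected in the neutrophil-like cells of both libraries, and the macrophage marker list summed to 98.4 and 266 CPM there against 6137 and 5855 CPM in macrophage-like cells. CPM is the summed UMIs of a gene per 1000000 UMIs of the class. A gene entered the counts below with at least 50 UMIs over both libraries in a class and was counted as higher or lower at a ratio of at least 2. The 3′ assay catches genes with unequal efficiency, so CPM values were compared within a gene only.

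In neutrophil-like cells Srxn1 was almost undetected without a ligature. It gave 1 UMI in 1 of 53 control cells (2.14 CPM, interval 0.054 to 11.9) and 68 UMIs in 45 of 320 LIP cells (42.0 CPM, interval 32.6 to 53.3). The log2 ratio was 4.30 with an interval from 1.77 to 9.62, a width set by the single control UMI. With the cell richest in Srxn1 left out of each library, control stood at 0 and the log2 ratio was 2.59 with control set at the level of 3 UMIs. The share of cells with a Srxn1 UMI was 1.89% in control and 14.1% in LIP, although the LIP cells were shallower (median 3878 UMIs against 6494). Thinned to 1000 UMIs per cell, 0 of 53 control cells and 15 of 311 LIP cells (4.82%) held 1. No class is known to lack Srxn1. It was seen in 0 of 152 control B-like cells at a median of 4761 UMIs, an interval up to 4.20 CPM, and also in 0 of 20 LIP B-like cells and 0 of 12 control erythroid-like cells.

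Across classes, the order of Srxn1 levels differed between the libraries. In control it was highest in stromal-like cells (30.7 CPM, 45 UMIs), followed by vascular endothelial-like cells (20.3 CPM, 7 UMIs), and neutrophil-like cells lay below 9 other classes. In LIP the neutrophil-like cells had the highest value (42.0 CPM), ahead of T-like cells (32.8 CPM from 9 UMIs), macrophage-like cells (25.4 CPM), stromal-like cells (24.3 CPM) and vascular endothelial-like cells (20.7 CPM). The interval of every class in either order overlapped that of the next, so neighbours were not separated beyond counting error. Within the LIP library the neutrophil-like level exceeded the macrophage-like level by a log2 ratio of 0.73 (interval 0.13 to 1.35). That ratio was 1.61 when each cell weighed the same, and 12 of the 37 macrophage UMIs came from 1 cell. Neutrophil-like cells held 28.1% of the 242 Srxn1 UMIs of the LIP library, against 42.0% of 169 in epithelial-like cells of control.

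**Figure D1:**
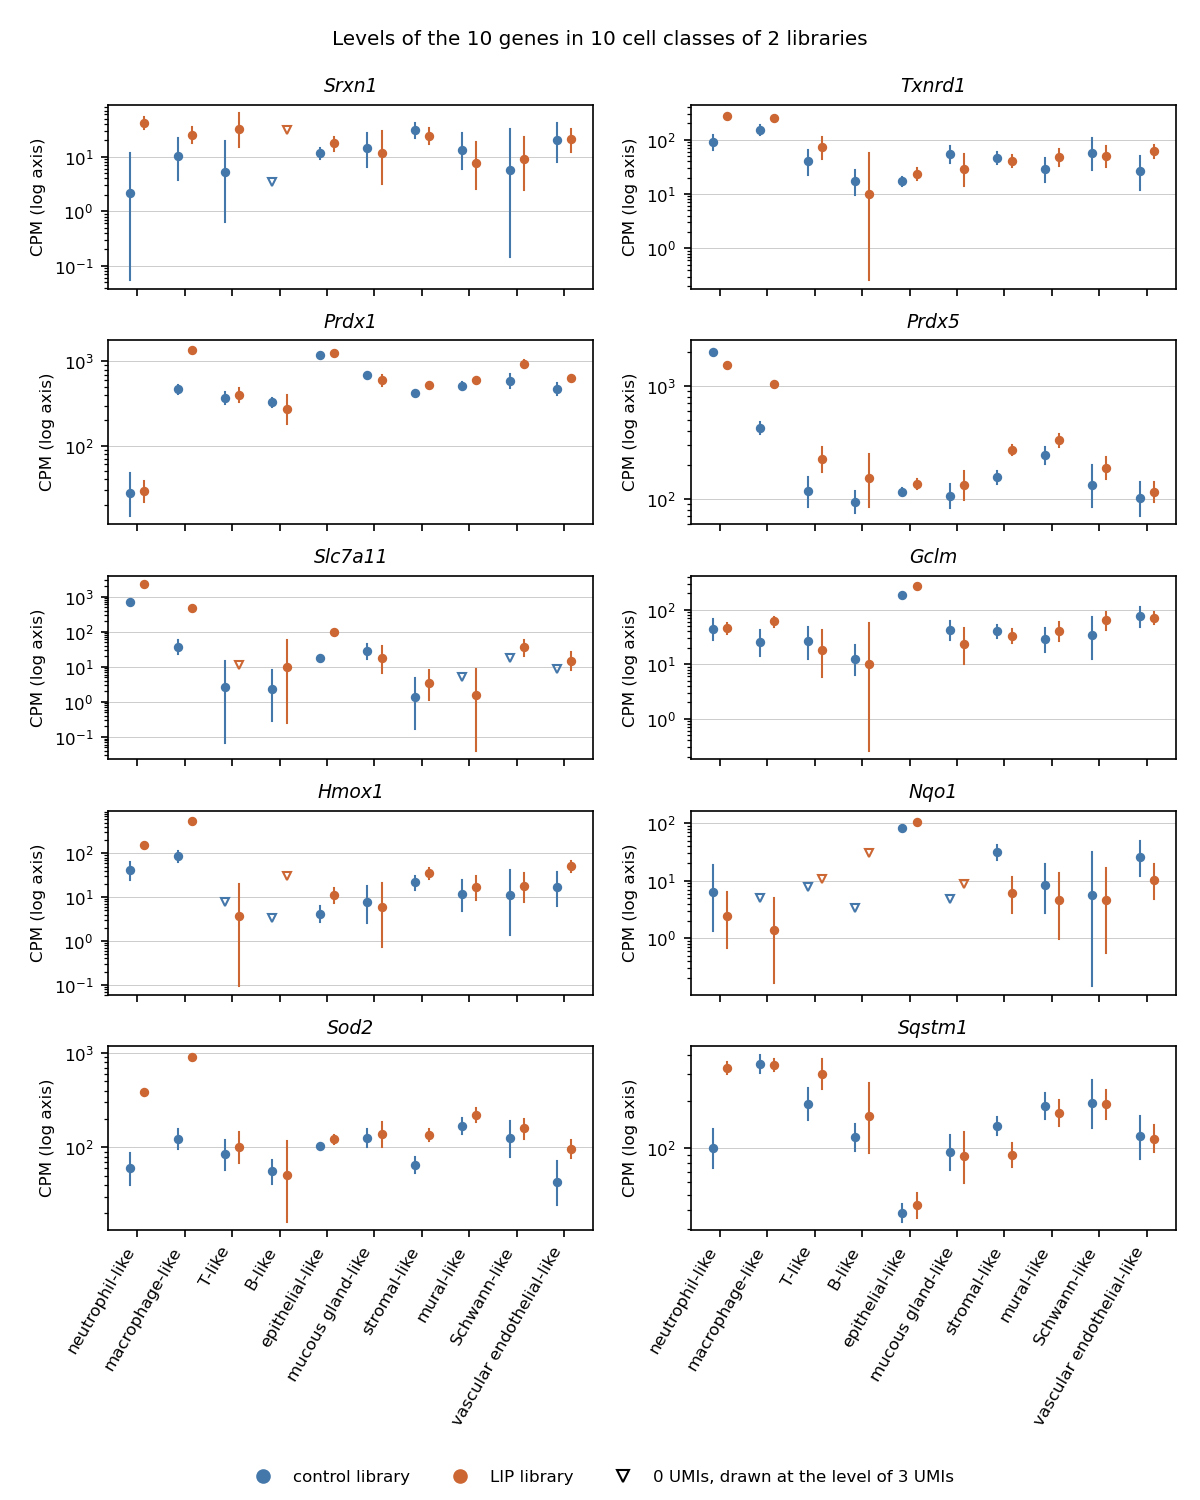
Level of each of the 10 genes (CPM, log axis, scales differ between panels) in 10 cell classes of the control (blue) and LIP (orange) libraries, with 1 library per condition; bars are exact 95% Poisson intervals for counting error and open triangles mark 0 UMIs at the level of 3 UMIs. Slc7a11, Sod2 and Hmox1 lie higher in LIP in both neutrophil-like and macrophage-like cells, while Nqo1 stays near 0 in both.

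Of the 10 genes, 9 reached 50 UMIs in neutrophil-like cells, 6 were at least 2-fold higher in LIP and 0 at least 2-fold lower; Nqo1 was under the minimum. Over all 3200 genes with 50 UMIs there, 12.2% were at least 2-fold higher and 3.03% at least 2-fold lower. Among those higher, Srxn1 (1 control and 68 LIP UMIs), Hmox1 (19 and 248) and Txnrd1 (42 and 450) reached the minimum only through LIP. Sod2 (28 and 619) and Sqstm1 (47 and 532) did so too. The set also includes the gene the contrast chose and genes picked with results known, so nothing is read from the count.

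Other genes of peroxide removal differed among themselves in neutrophil-like cells. Txnrd1, the reductase that recharges thioredoxin with NADPH, measured 89.8 CPM in control and 278 CPM in LIP (log2 ratio 1.63, interval 1.17 to 2.12). Prdx1, a cytosolic peroxiredoxin of the kind that sulfiredoxin repairs, measured 27.8 and 29.1 CPM (log2 ratio 0.06, interval −0.85 to 1.07). The Prdx1 level of neutrophil-like cells was the lowest of all 10 compared classes in both libraries, and the next lowest class, B-like cells, measured 329 and 273 CPM. Prdx5, a peroxiredoxin of mitochondria, peroxisomes and cytosol, was highest in neutrophil-like cells in both libraries, at 1995 CPM in control and 1520.1 CPM in LIP (log2 ratio −0.39, interval −0.50 to −0.28). Thus the neutrophil-like cells were rich in Prdx5 and poor in Prdx1 with or without a ligature. Prdx5 exons overlap those of Trmt112 on the opposite strand, and reads of both strands are told apart only as far as the stranded assay allows.

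Slc7a11, the cystine importer that feeds glutathione synthesis, was largely a neutrophil transcript. It measured 716 CPM in control neutrophil-like cells and 2217 CPM in LIP (log2 ratio 1.63, interval 1.47 to 1.80), and these cells held 64.7% and 78.1% of all its UMIs in kept cells. It was detected in 84.9% and 96.3% of neutrophil-like cells, and in 54.7% and 80.7% after thinning. Stromal-like cells, deeper at medians of 11623 and 20157 UMIs, had a Slc7a11 UMI in 1.52% and 6.25% of cells. Gclm, the modifier subunit of the enzyme that begins glutathione synthesis, measured 44.9 and 45.7 CPM (log2 ratio 0.03, interval −0.69 to 0.80). These are sums over a class whose mixture of states differed between the libraries, as described below by sub-cluster.

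Hmox1, which breaks down haem, measured 40.6 CPM in control neutrophil-like cells and 153 CPM in LIP (log2 ratio 1.92, interval 1.24 to 2.67). Nqo1, a quinone reductase and a common readout of NRF2 activity, gave 3 UMIs in control (6.42 CPM) and 4 in LIP (2.47 CPM), too few for a comparison. Sod2, the mitochondrial superoxide dismutase, measured 59.9 and 383 CPM (log2 ratio 2.68, interval 2.13 to 3.28). Its share of cells was 30.2% and 53.8%, or 3.77% and 28.6% after thinning. Sqstm1 encodes p62, an autophagy receptor that also binds KEAP1, and it measured 101 and 329 CPM (log2 ratio 1.71, interval 1.28 to 2.17). Sqstm1 exons overlap those of Mrnip on the opposite strand. Marker lists of other cells moved with the class as well. The mast cell list (6 genes) summed to 489.8 CPM in control neutrophil-like cells, with 0 genes at 0, and to 6.80 CPM in LIP, with 5 at 0, and the B cell list (11 genes) summed to 182 and 55.6 CPM, with 0 and 6 genes at 0. Their part in the ratios of the 10 genes was not tested.

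The neutrophil-like cells fell into 2 sub-clusters whose shares differed between the libraries. The first was led by Acod1 and Ccl3 and held 30 control and 272 LIP cells; the second was led by the granule genes Ltf, Ngp and Camp and held 23 and 48 cells. The clustering used these genes as well, so differences between the sub-clusters are a description. In the LIP library the Acod1-led cells held 66 of the 68 Srxn1 UMIs (67.1 CPM against 3.16 CPM in Ltf-led cells; log2 ratio 4.41, interval 2.50 to 7.49). Slc7a11 (3451 against 303 CPM, log2 ratio 3.51), Hmox1 (236 against 25.2 CPM, 3.22), Txnrd1 (417 against 63.1 CPM, 2.72), Sod2 (565 against 99.4 CPM, 2.51) and Sqstm1 (479 against 96.2 CPM, 2.31) lay on the same side. Gclm (34.6 against 63.1 CPM, log2 ratio −0.87) and Prdx5 (1264 against 1918 CPM, −0.60) lay on the other. The same side was seen in control for Slc7a11 (1917 against 275.0 CPM, log2 ratio 2.80), Txnrd1 (223 against 41.0 CPM, 2.44) and Sqstm1 (175 against 73.1 CPM, 1.26, interval 0.36 to 2.14), and for Prdx5 (1384 against 2220.4 CPM, −0.68). For Hmox1 (0.67, interval −0.92 to 2.13) and Sod2 (0.59, interval −0.68 to 1.79) the control interval included 0.

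Compared within the Acod1-led cells, part of the difference between libraries remained. Srxn1 measured 7.95 CPM in control, from 1 UMI, and 67.1 CPM in LIP (log2 ratio 3.08, interval 0.55 to 8.40). Sod2 measured 79.5 and 565 CPM (2.83, interval 1.94 to 3.90), Hmox1 55.7 and 236 CPM (2.08, interval 1.02 to 3.41), and Sqstm1 175 and 479 CPM (1.45, interval 0.84 to 2.14). The ratios of Txnrd1 (0.90, interval 0.35 to 1.51) and Slc7a11 (0.85, interval 0.66 to 1.04) were under 2-fold. Gclm measured 15.9 CPM in control, from 2 UMIs, and 34.6 CPM in LIP, from 34 (1.12, interval −0.84 to 4.22), so at this depth its ratio could not be told from that of Slc7a11. In the Ltf-led cells Sod2 measured 52.7 and 99.4 CPM (0.92, interval 0.14 to 1.76), and the intervals of the Hmox1, Txnrd1, Slc7a11, Sqstm1 and Gclm ratios included 0. Prdx5, at −0.39 in the class sum, gave −0.13 (interval −0.36 to 0.11) in the Acod1-led cells. Its ratio was −0.21 (interval −0.34 to −0.08) in the Ltf-led cells. When the LIP sub-clusters were weighted as in control, the log2 ratio was 3.25 for Srxn1, 1.91 for Sod2 and 1.01 for Hmox1, and it was under 1 for Sqstm1 (0.99), Txnrd1 (0.82) and Slc7a11 (0.68). Both the mixture of the 2 sub-clusters and the level summed over the Acod1-led cells therefore differed between the libraries. With 15 dimensions a sub-cluster led by Csf3r held 13 control and 155 LIP cells, and another led by Ccl3 held 20 and 117. A further mixture within the Acod1-led cells was thus not separated from a difference in level.

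**Figure D2:**
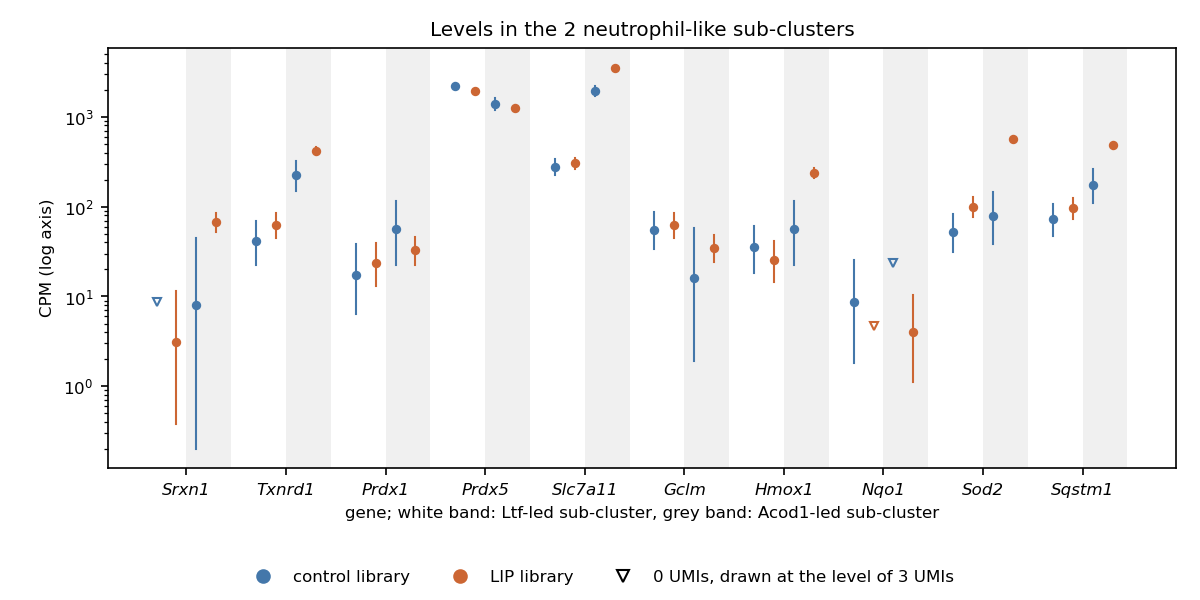
Level of the 10 genes (CPM, log axis) in the Ltf-led (white band) and Acod1-led (grey band) neutrophil-like sub-clusters of the control (blue) and LIP (orange) libraries; bars are exact 95% Poisson intervals and open triangles mark 0 UMIs at the level of 3 UMIs. Within the Acod1-led band Sod2 goes from 79.5 to 565 CPM and Hmox1 from 55.7 to 236 CPM, while Slc7a11 is already at 1917 CPM in control.

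Within the LIP Acod1-led cells, 44 cells held a Srxn1 UMI and 228 held none, at medians of 3845 and 3585 UMIs. Cells with Srxn1 had slightly more Txnrd1 (552 against 389 CPM, log2 ratio 0.50, interval 0.15 to 0.84), Sod2 (738 against 530.0 CPM, 0.48, interval 0.18 to 0.77), Sqstm1 (606 against 453 CPM, 0.42) and Slc7a11 (4188 against 3301 CPM, 0.34), and no more Hmox1 (198 against 244 CPM, −0.30, interval −0.88 to 0.24). All these ratios were under 2-fold, and the median over the 1864 genes with 50 UMIs was −0.06. The cells come from 1 library, so the intervals say nothing about mice.

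In macrophage-like cells 8 of the 10 reached 50 UMIs, 6 were at least 2-fold higher in LIP and 0 at least 2-fold lower. Over the 4837 genes with 50 UMIs there, 8.02% were at least 2-fold higher and 3.35% at least 2-fold lower. The genes were picked with earlier results known, and Slc7a11 (22 control and 670 LIP UMIs) and Gclm (15 and 89) reached the minimum only through LIP, so nothing is read from the count. Slc7a11 measured 37.2 CPM in control and 459.6 CPM in LIP (log2 ratio 3.63, interval 3.02 to 4.31), and the share of cells with a UMI was 14.6% and 67.9%. Sod2 measured 123 and 912 CPM (2.88, interval 2.54 to 3.24), and Hmox1 86.3 and 559.7 CPM (2.70, interval 2.29 to 3.14). All 3 were also past 2-fold in neutrophil-like cells, as were Sqstm1 and Txnrd1, which were not in the class sum of macrophage-like cells.

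The peroxiredoxins differed between the classes. In macrophage-like cells Prdx1 measured 469 and 1357 CPM (log2 ratio 1.53, interval 1.35 to 1.72) and Prdx5 421 and 1043.9 CPM (1.31, interval 1.12 to 1.51), whereas in neutrophil-like cells neither was higher in LIP beyond its interval. Gclm measured 25.4 and 61.0 CPM (1.27, interval 0.47 to 2.16) and Txnrd1 152 and 248 CPM (0.71, interval 0.37 to 1.06). Sqstm1 gave 350.2 and 345 CPM (−0.02, interval −0.26 to 0.22), in contrast to its ratio in neutrophil-like cells. That contrast holds for the class sum only. In the sub-clusters described below, with cells under 1000 UMIs left out, the Sqstm1 ratio differed. It was −0.45 (interval −0.75 to −0.14) in H2-Eb1-led cells and 1.09 (interval 0.59 to 1.62) in F13a1-led cells. Srxn1, under the minimum with 6 and 37 UMIs, measured 10.1 and 25.4 CPM (1.32, interval 0.07 to 2.86), and Nqo1 gave 0 and 2 UMIs. A single LIP cell held 20.2% of the Hmox1 UMIs and 1 held 20.1% of the Prdx1 UMIs, yet both stayed past 2-fold without the richest cell of each library.

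The macrophage-like class formed 1 sub-cluster, but it was divided under other settings, and the parts differed between the libraries. Without integration a sub-cluster led by Ccl5, Saa3 and Arg1, with Hmox1 and Nos2 among its 10 leading genes, held 0 control and 32 LIP cells. With cells under 1000 UMIs left out, a sub-cluster led by the antigen presentation gene H2-Eb1 held 45 control and 43 LIP cells, and one led by F13a1 held 14 and 51. The class then held more cells than the 41 and 78 above, and it took in 27 Nqo1 UMIs of control H2-Eb1-led cells, so the values by sub-cluster are not parts of the class sums above. This division was read after seeing the data and its clustering used the 10 genes as well.

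Within the H2-Eb1-led cells 6 of the 10 genes reached 50 UMIs and 1 was past 2-fold, Slc7a11 (19.1 and 55.3 CPM, log2 ratio 1.54, interval 0.54 to 2.65), while Sod2 measured 98.8 and 155 CPM (0.65, interval 0.17 to 1.13) and Hmox1, under the minimum, 27.7 and 29.8 CPM (0.10, interval −0.91 to 1.14). Within the F13a1-led cells 8 reached 50 UMIs and 7 were at least 2-fold higher in LIP, among them Slc7a11 (59.0 and 712 CPM, 3.59), Sod2 (166 and 1399.7 CPM, 3.07), Hmox1 (219.7 and 900.1 CPM, 2.03), Txnrd1 (113 and 322 CPM, 1.52) and Sqstm1 (193 and 409.6 CPM, 1.09, interval 0.59 to 1.62). Prdx5 was under 2-fold in both, at 0.31 and 0.87. Within the F13a1-led cells Slc7a11, Sod2, Hmox1, Txnrd1, Sqstm1 and Gclm reached 50 UMIs only through LIP. No share over all genes is given for these sub-clusters, so nothing is read from their counts. When these LIP sub-clusters were weighted as in control, 3 genes were past 2-fold, Slc7a11 (2.91), Sod2 (1.99) and Hmox1 (1.70), and Prdx1 (0.82), Prdx5 (0.65) and Gclm (0.12) were not. The mixture of these sub-clusters thus differed between the libraries, and the control level in the F13a1-led cells rests on 14 cells. Among the 10 leading genes of the H2-Eb1-led cells 0 were macrophage markers, while Cd209a of the dendritic list was present. States of macrophages and separate cell types were therefore not told apart.

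Other markers moved with the macrophage-like class. The osteoclast list (6 genes, Acp5 and Ctsk among them) summed to 79.5 CPM in control, with 3 genes at 0, and to 1081 CPM in LIP, with 1 at 0. The dendritic list (7 genes) summed to 704 and 211 CPM, with 1 and 0 genes at 0, and the neutrophil list (15 genes) to 601 and 1211 CPM, with 3 and 0 at 0. The plasma cell list (6 genes) summed to 16.9 and 243 CPM, with 2 and 3 at 0, and the B cell list (11 genes) to 467 and 129 CPM, with 5 and 6 at 0. The part of these in the ratios of the 10 genes was not tested. Single neutrophil markers in LIP macrophage-like cells stood at a median of 0.248% of their neutrophil-like level (range 0.106% to 8.86%), and Slc7a11 stood at 20.7%. Hmox1 and Sod2 were higher in LIP macrophage-like cells than in LIP neutrophil-like cells, and the log2 ratio, with the neutrophil-like level on top, was −1.87 (interval −2.08 to −1.66) for Hmox1 and −1.25 (interval −1.39 to −1.11) for Sod2. For Prdx1 that ratio was −5.55 in LIP and −4.07 in control.

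**Figure D3:**
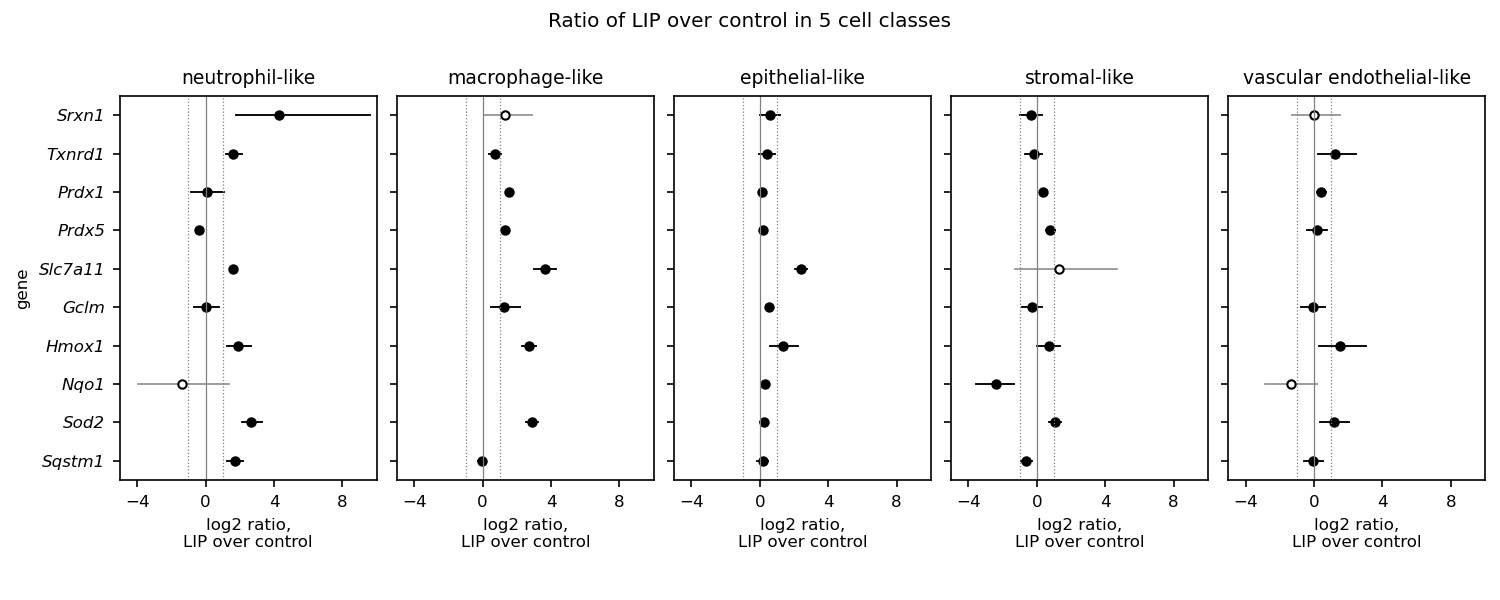
Log2 ratio of LIP over control for each of the 10 genes in 5 cell classes, with exact 95% intervals for counting error; filled points reached 50 UMIs over both libraries, open points did not, genes at 0 in a library are not drawn, and dotted lines mark 2-fold. Slc7a11 is right of the dotted line in neutrophil-like, macrophage-like and epithelial-like cells, and Sqstm1 in neutrophil-like cells.

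In epithelial-like cells all 10 genes reached 50 UMIs and 2 were at least 2-fold higher in LIP. Of the 9426 genes with 50 UMIs there, 2.41% were. As in the classes above, nothing is read from the count. Slc7a11 measured 17.8 CPM in control and 95.1 CPM in LIP (log2 ratio 2.41, interval 2.09 to 2.75), with UMIs in 12.5% and 28.3% of cells. Hmox1 measured 4.22 and 11.0 CPM (1.39, interval 0.57 to 2.21), a ratio that was 0.24 when each cell weighed the same. Slc7a11 was higher in LIP in each of 3 sub-clusters, from 28.6 to 115 CPM, from 9.56 to 93.4 CPM and from 2.40 to 57.1 CPM. No intervals are given for these, and the last held 34 control and 15 LIP cells, with a control level that rests on very few UMIs. Over the class, 1 control cell held 30 of the 110 Slc7a11 UMIs and 1 LIP cell held 39 of the 250. Neutrophil markers summed to 176 CPM in control and 2157 CPM in LIP epithelial-like cells, and singly stood at a median of 0.393% and at most 0.992% of their neutrophil-like level, while Slc7a11 stood at 4.29%. Free neutrophil RNA as a source of the epithelial Slc7a11 UMIs was not tested.

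Epithelial-like cells held the largest share of the UMIs of 3 of the genes in both libraries. A share also follows the size and depth of a class. These cells held 6167608 of the 13407122 kept UMIs of control and 2629155 of the 10560109 of LIP. Nqo1 measured 83.2 CPM in control and 105 CPM in LIP epithelial-like cells (log2 ratio 0.33, interval 0.11 to 0.54), and these cells held 74.2% and 82.1% of all its UMIs. Gclm measured 187 and 277 CPM (0.56, interval 0.43 to 0.70), with 71.1% and 61.1% of its UMIs. Prdx1 measured 1184 and 1273 CPM (0.11, interval 0.05 to 0.16), with 65.5% and 40.4%. Unnamed cells held 11.4% of the control UMIs of Nqo1, 13.0% of those of Gclm and 12.2% of those of Prdx1. In LIP the Prdx1 level of macrophage-like cells was 1357 CPM, with an overlapping interval. The ratios of the 8 genes short of 2-fold lay between 0.11 and 0.60, the upper end being Srxn1 (11.5 and 17.5 CPM, interval 0.04 to 1.16). Of the 10 compared classes, epithelial-like cells had the highest Nqo1 and Gclm levels in LIP. Lymphatic endothelial-like cells, too few to be compared, measured 128 CPM of Nqo1 in 19 control cells and 107 CPM, from 6 UMIs, in 5 LIP cells.

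In stromal-like cells 9 of the 10 genes reached 50 UMIs, 1 was at least 2-fold higher and 1 at least 2-fold lower in LIP. Over the 7051 genes there, 3.72% and 7.33% were, and the median gene stood at −0.16. Nothing is read from these counts either. Sod2 measured 65.5 and 135 CPM (log2 ratio 1.05, interval 0.69 to 1.41). The control cells lay mostly in 1 stromal sub-cluster, in which Sod2 was level at 59.3 and 60.3 CPM, and in a second sub-cluster, which held 20 control and 31 LIP cells, it measured 81.0 and 182 CPM. Nqo1 measured 31.4 and 6.08 CPM (−2.37, interval −3.58 to −1.32), but 1 control cell held 26 of the 46 UMIs and the ratio was −1.28 where cells under 1000 UMIs were left out before clustering. Srxn1, with its highest control value here, measured 30.7 and 24.3 CPM (−0.34, interval −1.01 to 0.33).

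In vascular endothelial-like cells 7 of the 10 genes reached 50 UMIs and 3 were at least 2-fold higher in LIP, where 5.32% of 4057 genes were. In control these 3 gave 6 (Hmox1), 9 (Txnrd1) and 15 (Sod2) UMIs and reached the minimum through LIP. Nothing is read from the count. Hmox1 measured 17.4 and 50.7 CPM (log2 ratio 1.54, interval 0.31 to 3.06), Txnrd1 26.1 and 62.2 CPM (1.25, interval 0.22 to 2.46), and Sod2 43.5 and 96.7 CPM (1.15, interval 0.35 to 2.05). A single LIP cell held 27 of the 44 Hmox1 UMIs, and without the richest cell of each library the ratio was 0.75. Srxn1 was level in these cells, at 20.3 and 20.7 CPM, with 12 of its 18 LIP UMIs in 1 cell.

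The T-like, B-like, Schwann-like, mural-like and mucous gland-like cells gave 50 UMIs for Prdx1, Prdx5, Sod2 and Sqstm1 only, and the log2 ratios of these 4 genes lay between −0.27 and 0.96 there; the median of all genes stood at 0.13 in T-like and 0.12 in B-like cells. The upper end was Prdx5 in T-like cells (116 and 226 CPM, interval 0.38 to 1.55), followed by Prdx5 in B-like cells (0.70, interval −0.20 to 1.50). Prdx1 in Schwann-like cells measured 586 and 935 CPM (0.67). The other 6 genes were too sparse in these classes for a ratio.

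Related genes outside the 10 were read from 11 lists in neutrophil-like cells, each set beside the median log2 ratio of 0.03 over all 3200 genes, of which 12.2% were at least 2-fold higher and 3.03% at least 2-fold lower as given above. Among regulators of NRF2, 2 of the 6 measured were at least 2-fold higher in LIP: Nfe2l2 itself (293 and 695 CPM, log2 ratio 1.25) and Maff, a small MAF partner (44.9 and 137 CPM, 1.60). Bach1, a repressor of NRF2 targets, gave −0.06, Cul3, the scaffold of the ligase that acts with KEAP1, gave −0.74, and Keap1 was under the minimum; the list median was 0.05. Among glutathione genes 1 of 7, a share near the 12.2% over all genes, was at least 2-fold higher, Slc3a2, the heavy chain that carries Slc7a11 to the membrane (42.8 and 164 CPM, 1.94), while Glrx gave 0.26, Mgst1 −0.69 and Mgst2 −0.99, with a median of −0.33. The mRNAs of both chains were thus higher in LIP in the class sums, that of Slc3a2 from 20 control and 266 LIP UMIs. Within the Acod1-led cells the Slc7a11 ratio was 0.85, and Slc3a2 was not read by sub-cluster. Protein was not measured.

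Of 6 thioredoxin and peroxiredoxin genes, 0 were at least 2-fold higher and 1 at least 2-fold lower (Txn2, −1.01), with Txnip at 0.85, Prdx6 at 0.63, Msra at −0.80 and a median of 0.18. The 4 measured genes of the NADPH supply list gave −0.99 (G6pdx), −0.77 (Tkt), −0.74 (Pgd) and −0.04 (Taldo1), a median of −0.75. In the class sums these 4 mRNAs did not lie on the side of Txnrd1, and they were not read by sub-cluster. Sod1 gave 0.00. In haem and iron handling 2 of 3 were at least 2-fold higher, the ferritin chains Fth1 (7315 and 27962 CPM, 1.93) and Ftl1 (2780.4 and 6636 CPM, 1.25), both of which have many near-identical copies in the genome and are uncertain for that reason, and the iron exporter Slc40a1 gave −0.57. The list's median was 1.25.

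Of the oxidant-producing enzymes 0 of 6 were past 2-fold, among them Cybb, the catalytic chain of the NADPH oxidase (1251 and 692 CPM, −0.85), Ncf1 (−0.40) and Ncf4 (−0.12), with a median of −0.24. The autophagy receptor list also holds Map1lc3b, which is not itself a receptor. In this list 1 of 4 was at least 2-fold higher, Optn (21.4 and 55.6 CPM, 1.38). Tax1bp1 gave 0.66, Map1lc3b 0.41 and Nbr1 −0.35, with a median of 0.53. Markers of neutrophil state moved with all of these. The granule list gave a median of −0.66 over 7 genes, from Ltf (−0.98) and Ngp (−0.88) to Chil3 (−0.37) and Cebpe (−0.31), and the activation list gave 8 of 8 at least 2-fold higher with a median of 2.36, from Nfkbia (1.68) and Tnfaip3 (1.79) to Ccl3 (2.92) and Ccl4 (4.65). Genes known to respond to tissue dissociation gave 3 of 7 at least 2-fold higher with a median of 0.54, from Fos (0.28) and Dnajb1 (0.32) to Jun (1.37) and Fosb (2.15), and their sum measured 2351 and 3637 CPM. Their part in the values of the 10 genes was not tested. All these lists were chosen with earlier results of these data known, so nothing is read from their counts. Maff (21 control and 221 LIP UMIs), Slc3a2 (20 and 266) and Optn (10 and 90) reached the minimum only through LIP. The same holds for Fosb (26 and 399) and Jun (36 and 322). In the activation list it holds for Icam1 (20 and 443) and Il1a (40 and 567), which are named for this alone.

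**Figure D4:**
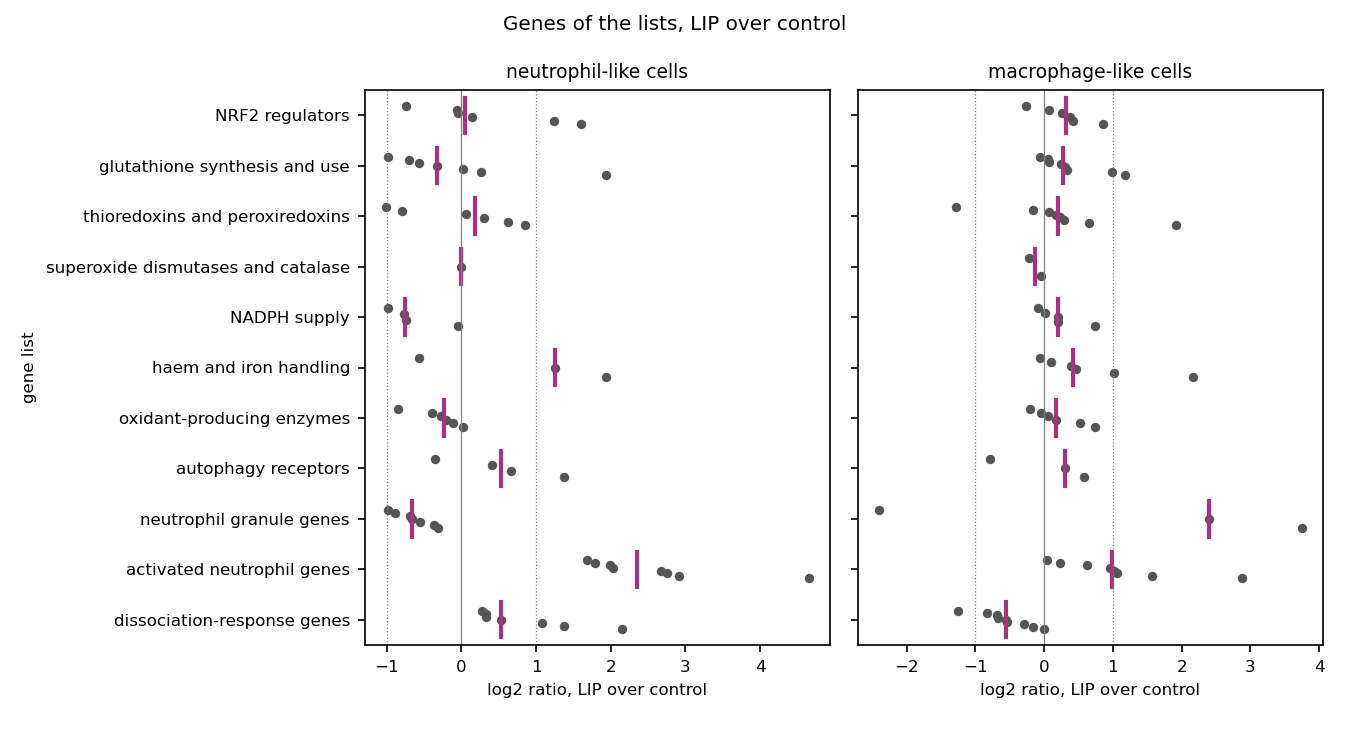
Log2 ratio of LIP over control for the genes of 11 lists with at least 50 UMIs in neutrophil-like (left) and macrophage-like (right) cells; each point is a gene, the coloured bar is the list's median, dotted lines mark 2-fold, and Nos2, at 0 in control macrophage-like cells, is not drawn. The activation list has a median of 2.36 in neutrophil-like cells, and the dissociation list lies above 0 in neutrophil-like cells (median 0.54) and below 0 in macrophage-like cells (median −0.55).

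In macrophage-like cells the same lists were read beside the 8.02% of all genes at least 2-fold higher there. The dissociation list summed to 6034 CPM in control and 4768 CPM in LIP, with 0 of 9 genes at least 2-fold higher and a median of −0.55. The part of the dissociation list in the Slc7a11, Sod2 and Hmox1 values of these cells was not tested. The regulators of NRF2 had 0 of 6 genes at least 2-fold higher and a median of 0.32, and Nfe2l2 measured 293 and 350.5 CPM (0.26). The ferritin chain Fth1 measured 6384 and 28561 CPM (2.16), with the same doubt about its copies. For 2 further genes the choice was made with their values in view. Txn1, the thioredoxin that Txnrd1 recharges, measured 354 and 1337.5 CPM (1.92, interval 1.71 to 2.13), against 0.06 in neutrophil-like cells. Nos2, the inducible nitric oxide synthase, gave 0 UMIs in control and 187 in LIP. With control set at the level of 3 UMIs it was 25.3-fold higher (log2 ratio 4.66, interval from 4.35 upward).

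The genes whose pattern was most like that of Srxn1 were found by Pearson's r of log2(CPM + 10) over 22 points, each a class in a library with at least 10 cells, among 9563 genes. They were Tlcd2 (r = 0.78), Pcyt1a (0.75), Anxa2 (0.72), Eaf1 (0.72) and Eea1 (0.72). Within the 10 genes Srxn1 gave 0.57 with Txnrd1, 0.54 with Hmox1 and 0.23 with Slc7a11. The points share 2 libraries and their depth, Srxn1 rests on few UMIs in most of them, and the values are a description only.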

How the data were processed

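The authors pooled cells from the periodontal tissue of 5 mice per condition, made 10x Genomics 3′ libraries and counted UMIs per gene with Cell Ranger on mm10; the deposited values are raw counts, and the matrix header names version 3.1.0 where the methods name 3.0. Barcodes with 200 to 7500 genes, at most 60000 UMIs and at most 10% mitochondrial UMIs were kept. Libraries were integrated and clustered in Seurat 5.3.0 (2000 variable genes, 30 dimensions, resolution 0.1, sub-clusters at 0.2), and sub-clusters were named "-like" from marker lists. Scrublet marked 4 control and 1 LIP barcodes, which were kept in the main values. UMIs were summed per class and library and scaled to CPM; intervals are exact Poisson, Clopper-Pearson for shares, and exact conditional for ratios, all at 95%. PCR duplicates were collapsed by UMI, and intervals cover counting error only. The ratio script was tested on simulated counts. A sum of 0 was set to 3 counts. With 1 library per condition no test was run.

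The 10 genes, the lists and the tests were chosen with earlier results of these data known. Named genes are the 10, from each list the 2 highest and 2 lowest ratios in neutrophil-like cells, and the 5 genes most like Srxn1; exceptions are named as such. A gene that the rule also names is not reported here. Promoters are from RefSeq (GRCm38.p6); gene positions are from GENCODE on GRCm38. No paired analysis applies to single libraries. Alternatives were other resolutions (0.05 and 0.3), 15 dimensions, a 5% mitochondrial limit, no marked doublets, no integration, a 1000 UMI minimum, equal weight per cell, centring on the median gene and a 20 UMI minimum; 6 more were added after seeing the data (leaving out the richest cell, the Acod1-led cells alone, reweighted neutrophil sub-clusters, and, with cells under 1000 UMIs left out, each macrophage sub-cluster alone and both reweighted).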

Additional observations from a re-analysis of the deposited data

Results flagged for a closer look

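The filters left out 276 LIP and 286 control barcodes, and 3 of the 10 genes were at least 2-fold higher in LIP in the sums of these barcodes, which enter no comparison of the report. Hmox1 measured 4.24 CPM in control and 12.0 CPM in LIP (log2 ratio 1.50, interval 0.58 to 2.51), from 13 and 44 UMIs. Slc7a11 measured 14.4 and 44.1 CPM (1.62, interval 1.13 to 2.13), and Sqstm1 39.1 and 86.8 CPM (1.15, interval 0.84 to 1.46). Nqo1 was at least 2-fold lower, at 40.1 and 10.6 CPM (−1.92, interval −2.48 to −1.39). No share over all genes is given for these sums, so nothing is read from the count. The class of these barcodes was not determined, and neutrophils make up different shares of the 2 libraries.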

How the results depend on the processing

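The log2 ratio of Srxn1 in neutrophil-like cells, the contrast that chose it, lay between 2.59 and 4.52 under the alternatives run. The low end sets a control sum of 0 at the level of 3 UMIs. The alternatives reuse the same 2 libraries, so this range is a description and lends the ratio no support. Of the 10 genes, 6 were past 2-fold in neutrophil-like cells under every other alternative run, 4 in the Acod1-led cells alone and 3 with the LIP sub-clusters weighted as in control; in macrophage-like cells the count was 1 in the H2-Eb1-led cells alone and 3 with the LIP macrophage sub-clusters weighted as in control (both with cells under 1000 UMIs left out), and ran from 5 to 7 otherwise. No share over all genes is given for these alternatives, so nothing is read from the counts. The log2 ratio of Srxn1 in neutrophil-like over macrophage-like cells was 0.73, and 1.61 when each cell weighed the same. Of 632 other values, 598 moved by less than their counting interval, 34 moved by more and 0 called values changed sign. Calls that were lost are Gclm in macrophage-like cells (0.59 with cells under 1000 UMIs left out), Hmox1 in epithelial-like cells (0.24 with equal weights), Hmox1 in vascular endothelial-like cells (0.75 without the richest cell), and Sod2 in stromal-like (0.87 with equal weights) and vascular endothelial-like cells (0.95 with 15 dimensions); the cause was not tested. No paired analysis was possible because each condition is 1 library. Depth limits Srxn1: 1 UMI in control neutrophil-like cells sets its interval, and Nqo1 cannot be compared there.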

Other observations

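Over all kept cells of a library, without regard to class, Slc7a11 measured 38.6 CPM in control and 435 CPM in LIP, Hmox1 12.2 and 116 CPM, Sod2 94.4 and 277 CPM, and Prdx5 212 and 509 CPM, while Nqo1 measured 51.5 and 31.7 CPM and Gclm 121 and 113 CPM. These sums mix the level within classes with the share of each class, since neutrophil-like cells made up 6.00% of kept control cells and 34.2% of kept LIP cells, and epithelial-like cells 25.4% and 12.1%. Prdx5 is an example, higher in the LIP sum although its neutrophil-like level was 1995 CPM in control and 1520.1 CPM in LIP. Its macrophage-like level was higher in LIP, at 421 and 1043.9 CPM, so levels and class shares both enter its sum. The genes most like Slc7a11 across the 22 class and library points were Hcar2 (r = 0.96), Il1rn (0.96) and Clec4d (0.95), and those most like Nqo1 were Fmo1 (0.93) and Pir (0.91), given as a description.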
